A study of Rattus norvegicus with 31 samples.

Results

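The inhibin and activin system was described in rat testis through 9 genes, chosen by name: the subunit genes Inha, Inhba and Inhbb, the binding proteins Fst and Fstl3, the receptors Acvr1b, Acvr2a and Acvr2b, and the coreceptor Tgfbr3. The platform annotation named probe sets for 8 of the 9 genes (none carried the symbol Acvr1b, which was not analysed here), 12 probe sets among 31042. For each gene the probe set with the highest mean over all arrays stood for the gene. A probe set was tested where at least 6 arrays had it above a filter level, set for each array at the 40th percentile of its signals. That held for 11 of the 12 probe sets, among them the main probe set of all 8 genes, and for 21269 probe sets or 11387 genes in all.

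Each array measured total RNA of testes from LBNF1 rats, 25 to 27 weeks old, and every group, the sham group included, had been given 6 Gy of radiation to the lower abdomen. The sham group had 14 arrays, and the ablation group had 11 arrays from rats given a GnRH (gonadotropin-releasing hormone) antagonist and the androgen receptor antagonist flutamide. The remaining 6 arrays came from rats given a GnRH antagonist, an androgen receptor antagonist and estradiol. Their sample titles call this FSH supplementation and name estradiol among the agents given. The series title and design speak of estradiol, and the group is called ablation plus estradiol here. By the labels the arrays are biological replicates, and p-values measure the spread between them. The 25 sham and ablation arrays come from an earlier deposit and the 6 arrays with estradiol from a newer one, so the effect of the deposit and that of estradiol cannot be told apart. Of the sham arrays, 10 are described as control testes and 4 as irradiated testes, although all are titled irradiated.

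Inhibins are dimers of the alpha subunit, the product of Inha, with a beta subunit from Inhba or Inhbb, while activins are dimers of beta subunits alone. In the adult testis inhibin B, the dimer of alpha and beta B, is made mainly by Sertoli cells and lowers the secretion of follicle-stimulating hormone (FSH) by the pituitary, and FSH acting through cyclic AMP is a known stimulus of Inha. Activins bind type II receptors (Acvr2a, Acvr2b), which recruit a type I receptor and activate Smad2 and Smad3, follistatin and follistatin-like 3 trap activin, and betaglycan, the product of Tgfbr3, helps inhibin occupy the type II receptors.

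Promoter sequences, 250 bases before to 50 bases after the annotated start, were taken from RefSeq on the GRCr8 build for Inha, Inhbb and Fstl3, since these genes had main signals above the filter level on every array and passed the test in opposite directions. The Inha promoter lies at chr9:84442859-84443158 on the plus strand, Inhbb at chr13:33089324-33089623 on the minus strand and Fstl3 at chr7:10579795-10580094 on the minus strand. Capitals mark matches, on either strand, to CGTCA (the core of a cAMP response element), AGGTCA (a core bound by nuclear receptors), GATAAG (bound by GATA factors), CAGAC (Smad proteins) and GGGCGG (Sp1).
Inha: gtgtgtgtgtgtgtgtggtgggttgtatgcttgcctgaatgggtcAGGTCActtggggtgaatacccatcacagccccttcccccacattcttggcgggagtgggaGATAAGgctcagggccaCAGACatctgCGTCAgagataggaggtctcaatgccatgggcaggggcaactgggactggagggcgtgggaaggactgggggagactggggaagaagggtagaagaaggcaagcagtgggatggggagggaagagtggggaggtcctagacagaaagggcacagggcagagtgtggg
Inhbb: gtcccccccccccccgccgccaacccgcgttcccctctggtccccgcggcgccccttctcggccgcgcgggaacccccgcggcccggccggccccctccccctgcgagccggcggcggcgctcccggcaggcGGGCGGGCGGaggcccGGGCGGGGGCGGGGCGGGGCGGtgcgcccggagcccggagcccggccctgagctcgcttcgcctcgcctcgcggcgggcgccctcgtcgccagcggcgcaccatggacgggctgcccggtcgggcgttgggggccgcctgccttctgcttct
Fstl3: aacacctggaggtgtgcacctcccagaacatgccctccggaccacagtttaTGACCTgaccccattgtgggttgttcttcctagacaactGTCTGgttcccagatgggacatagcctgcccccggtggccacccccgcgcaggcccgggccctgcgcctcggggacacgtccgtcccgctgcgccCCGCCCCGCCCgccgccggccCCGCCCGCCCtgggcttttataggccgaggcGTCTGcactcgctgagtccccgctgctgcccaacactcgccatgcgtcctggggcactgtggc

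The Inha promoter held 1 match each to AGGTCA at -205, GATAAG at -144, CAGAC at -127 and CGTCA at -117, counted back from the start. The Inhbb promoter held 6 matches to GGGCGG between -118 and -86, some of them overlapping, and none to the other motifs searched. The Fstl3 promoter held 4 matches to GGGCGG, 2 to CAGAC and 1 to AGGTCA. Of all 33469 rat promoters of this length, 50.1% held CAGAC, 33.1% GGGCGG, 21.2% CGTCA, 16.2% AGGTCA and 7.05% GATAAG. G and C made up 59.0% of the Inha window, 84.3% of the Inhbb window and 69.0% of the Fstl3 window, against a median of 51.7% over all promoters. The estrogen response element, GGTCA followed after 3 bases of any kind by TGACC, was searched too and stood in 0.0269% of all promoters. It was found in none of the 8 promoters given for the 9 genes, which include that of Acvr1b, while no promoter was given for Fst.

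All deposited values are logarithms and are read here as log2, so a difference of 1 is a 2-fold change. Array medians lay between -1.44 and -1.24 and filter levels between -1.93 and -1.75. Markers of somatic cells were present in all 3 groups. The summed linear signal of 8 Sertoli cell markers ran from 76.2 to 190 in sham (median 144), from 143 to 194 in ablation (162) and from 90.0 to 172 in ablation plus estradiol (154.5). The summed signal of 7 Leydig cell markers had medians of 91.1, 51.1 and 57.0 in the same order, and that of 6 peritubular myoid markers 17.6, 11.5 and 12.1. For 4 meiotic and spermatid markers the sums ran from 0.477 to 69.5 in sham (median 0.727) and from 0.564 to 21.2 in ablation (1.62). In ablation plus estradiol they ran from 0.772 to 1.05 (0.964), with Prm1 and Tnp1 below the filter level on every array. By these sums few arrays carried much late germ cell RNA, and none of those with estradiol did. Among 4 spermatogonial markers, Ret and Sall4 were below the filter level on every sham array, and the sums had medians of 1.45, 1.77 and 2.11. In such bulk RNA, fewer cells of a type and less RNA per cell cannot be told apart, and the part of cell composition in the changes given here was not tested.

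Of the 8 genes, 4 passed limma's test (adjusted p under 0.05) with ablation against sham: Inhbb, Inha and Acvr2b were higher and Fstl3 was lower. Among all genes tested 22.1% passed, 9.23% higher and 12.8% lower. Of the 8, 5 passed with ablation plus estradiol against sham, the same 4 in the same directions together with Fst, which was lower, beside 17.2% of all genes (5.28% higher, 11.9% lower). Between the treated groups 0 of 8 passed limma's test, beside 3.46% of all genes (0.729% higher, 2.73% lower), and 2 (Inha and Fst) had an unadjusted p under 0.05. Acvr2b, above the filter level on 4 sham arrays, was tested only because of treated arrays, and over the other 7 genes 3, 0 and 4 passed with ablation against sham, between the treated groups and with ablation plus estradiol against sham. Median log2 changes over the 8 genes were 0.11, 0.05 and -0.0041 for ablation against sham, ablation plus estradiol against sham and the treated groups, and those over all genes 0.00082, -0.03 and -0.02. The 3 comparisons share arrays, the sham arrays or those of one treatment, so they are not independent of each other.

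**Figure D1:**
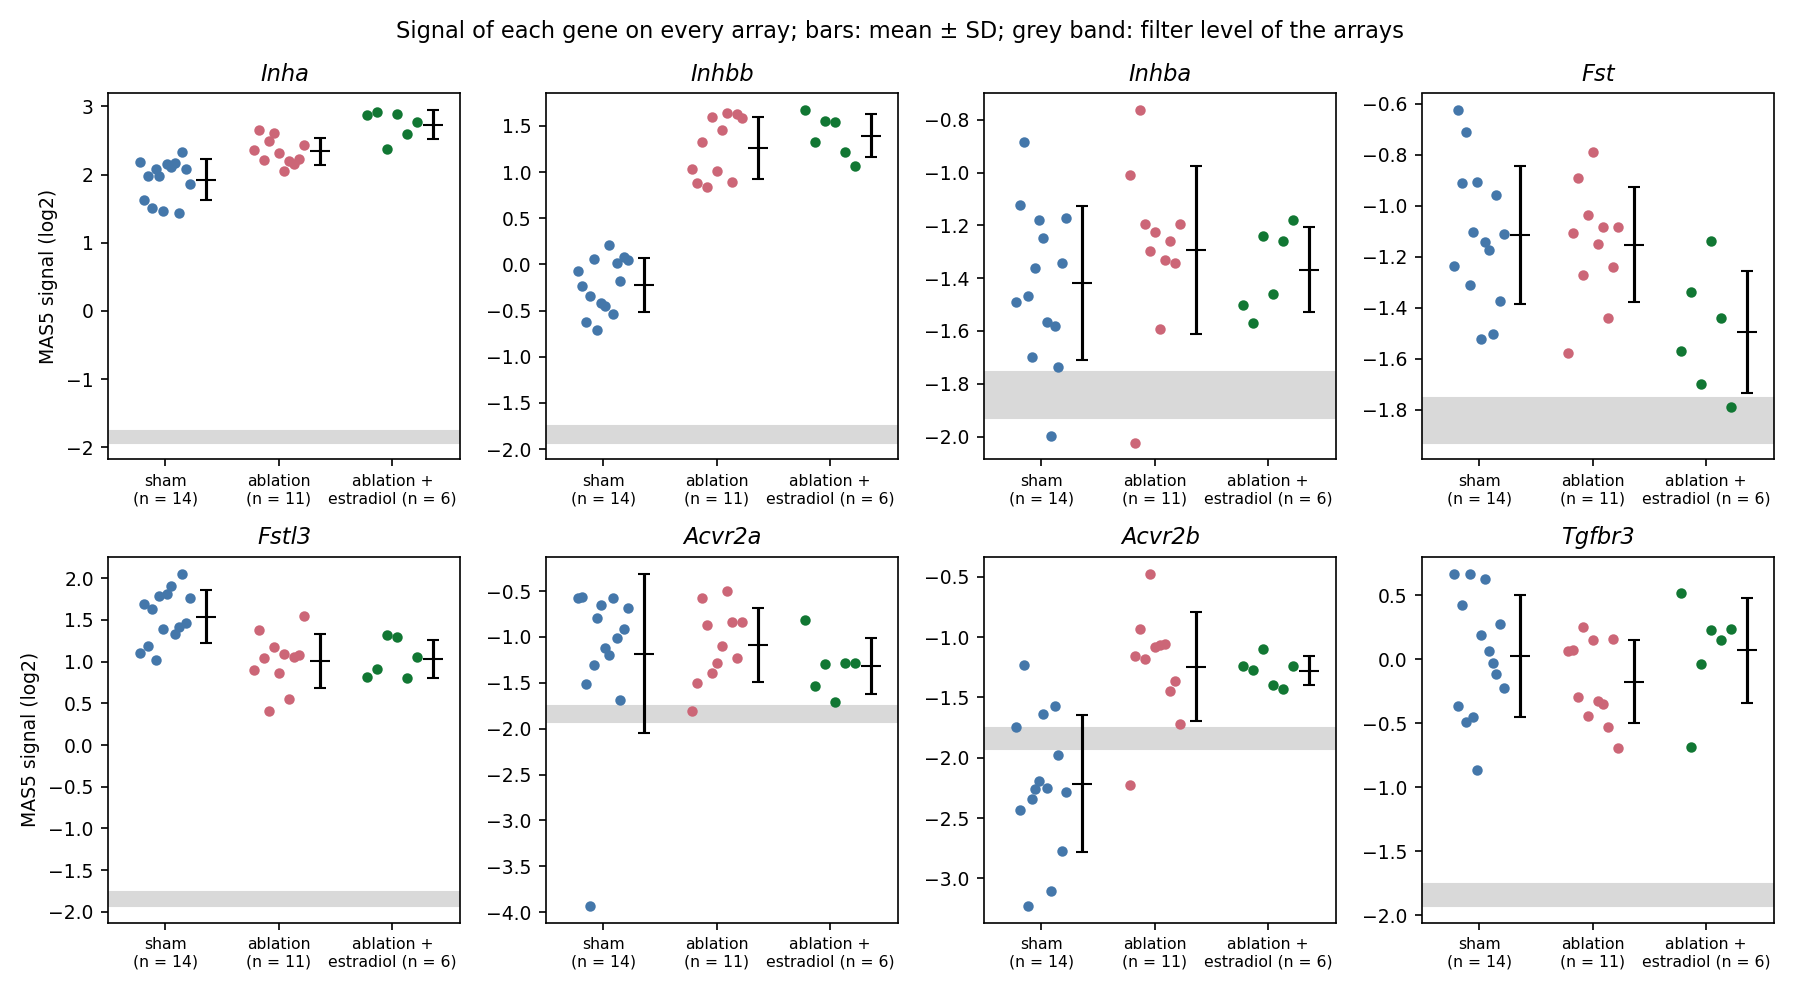
MAS5 signal (log2, vertical axis, a scale of its own for each gene) of the main probe set of 8 genes on each of 31 arrays, by group (14 sham, 11 ablation, 6 ablation plus estradiol); points are arrays, bars the mean ± SD and the grey band the filter levels of the arrays. Inhbb shows a gap between sham arrays, at most 0.20, and the other arrays, at least 0.83, while Acvr2b in sham lies mostly in or below the band.

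Inhbb, which encodes the beta B subunit of inhibin B and activin B, had the largest change of the 8 genes in both comparisons with sham. Its signal (log2) in sham arrays ran from -0.71 to 0.20 with a median of -0.21 (mean -0.23 ± 0.29, SD, n = 14). In ablation arrays it ran from 0.83 to 1.64 with a median of 1.32 (1.26 ± 0.33, n = 11), and in ablation plus estradiol arrays from 1.06 to 1.67 with a median of 1.435 (1.40 ± 0.23, n = 6). Every treated array of either kind lay above every sham array, and the 2 treated groups overlapped broadly. Groups did not overlap for 2.42% of all genes with ablation against sham and for 3.71% with ablation plus estradiol against sham. Between the treated groups 0 of the 8 genes had arrays without overlap, beside 0.738% of all genes.

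The change of Inhbb with ablation was 1.49 ± 0.12 (log2, SE), or 2.81-fold higher (limma, adjusted p = 1.35e-12), with a 95% interval from 1.25 to 1.72. By size of change it ranked 97 among 11387 genes. Against sham, ablation plus estradiol gave 1.62 ± 0.14, or 3.08-fold (limma, adjusted p = 3.25e-11). Ablation with and without estradiol differed by 0.13 ± 0.15 (limma, adjusted p = 0.716), with a 95% interval from -0.16 to 0.43. The call was kept in all 36 alternatives run for ablation and all 31 run for ablation plus estradiol, with changes between 1.27 and 1.58 and between 1.40 and 1.77.

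The spread of Inhbb within ablation (SD 0.33) was close to that within sham (SD 0.29). Across all 31 arrays, after removing group means, Inhbb moved with the main axis of variation among arrays: its deviations had r = 0.75 and rho = 0.77 with the first principal component of the deviations of all kept probe sets, which carried 14.6% of that variance and to which Inhbb itself adds. For Inha the same r was 0.23. The genes with the deviations most like those of Inhbb were Gng10 (r = 0.89, rho = 0.905), Bub3 (r = 0.877) and Erh (r = 0.874) among 11273 candidates, picked as the highest of these. Without the 2 arrays farthest from the median of Inhbb these r were 0.888, 0.859 and 0.899. The arrays share tissue and array type, and what moves with that axis was not tested.

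Inha, which encodes the alpha subunit found in inhibins and not in activins, was higher in both treated groups than in sham, by less than Inhbb. Its signal (log2) in sham arrays ran from 1.44 to 2.33 with a median of 2.03 (1.93 ± 0.30, SD, n = 14). Ablation arrays ran from 2.05 to 2.66 with a median of 2.31 (2.34 ± 0.19, n = 11), and ablation plus estradiol arrays from 2.37 to 2.91 with a median of 2.82 (2.73 ± 0.21, n = 6). All 11 ablation arrays lay above the sham mean and 5 of them above every sham array, and all 6 arrays with estradiol lay above every sham array.

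The change of Inha with ablation was 0.41 ± 0.10 (log2, SE), or 1.33-fold (limma, adjusted p = 0.00261), with a 95% interval from 0.21 to 0.61. Against sham, ablation plus estradiol gave 0.81 ± 0.12, or 1.75-fold (limma, adjusted p = 4.71e-06), with an interval from 0.56 to 1.05. Between the treated groups the difference was 0.39 ± 0.13 (limma, p = 0.00336, adjusted p = 0.0577), with an interval from 0.14 to 0.65, and 6 of 6 arrays with estradiol lay above the ablation mean. It missed the threshold as tested and passed it in 7 of 26 alternatives, among them quantile normalization (0.45, adjusted p = 0.0242), centring each array on its median (0.44, adjusted p = 0.0306) and a fit of these groups alone (adjusted p = 0.0271). It also passed without ablation replicate 2, ablation replicate 5 or estradiol replicate 3, where adjusted p was 0.0369, 0.0446 and 0.0277 (limma). Over the 26 alternatives its change ran from 0.34 to 0.47 and its adjusted p from 0.0242 to 0.218. For the change with ablation, adjusted p was 0.0511 when only the 4 sham arrays described as irradiated were used, with the same size of 0.41.

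Inhba, which encodes the beta A subunit of inhibin A and activin A, was dim. Its signal (log2) ran from -2.00 to -0.88 in sham (-1.42 ± 0.29, SD, n = 14), from -2.02 to -0.76 in ablation (-1.29 ± 0.32, n = 11) and from -1.57 to -1.18 in ablation plus estradiol (-1.37 ± 0.16, n = 6). The 3 groups overlapped over most of their range, and on 29 of 31 arrays the signal was above the filter level. Its differences were 0.12 ± 0.12, -0.08 ± 0.15 and 0.05 ± 0.15 (log2, SE) for ablation against sham, ablation plus estradiol against ablation, and ablation plus estradiol against sham (limma, adjusted p = 0.529, 0.862 and 0.888). The 95% interval of the first, from -0.12 to 0.37, does not reach the change seen for Inhbb. A second probe set of Inhba was above the filter level on 8 arrays and gave -0.05, -0.38 and -0.43, none of which passed.

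**Figure D2:**
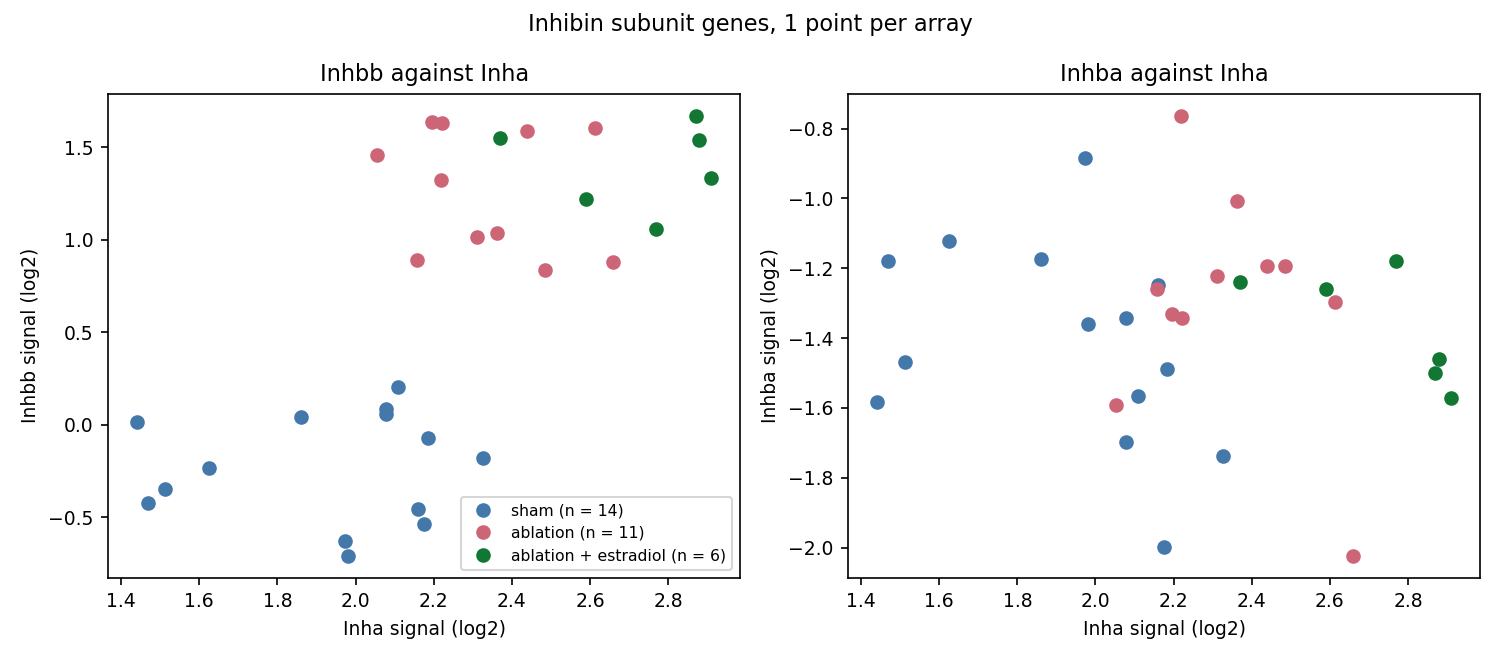
Signal (log2) of Inhbb (left, vertical axis) and Inhba (right, vertical axis) against Inha (horizontal axis), 1 point per array, with 14 sham, 11 ablation and 6 ablation plus estradiol arrays. The treated arrays stand above the sham arrays on the Inhbb axis with no overlap and spread over the same range as sham on the Inhba axis.

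The subunit genes thus changed unequally, which was tested on the difference of 2 probe sets within each array, a measure free of array scaling whose own level has no meaning between probe sets. Ablation moved Inhbb minus Inha by 1.08 (log2), with all 11 ablation arrays above the sham mean (permutation test, p = 2e-05, the smallest that 100000 resamples give, adjusted p = 9e-05 over 9 such tests). It moved Inhbb minus Inhba by 1.36, with no overlap between ablation and sham arrays (permutation test, p = 2e-05, adjusted p = 9e-05). Inhba minus Inha moved by -0.29 (permutation test, adjusted p = 0.173). By these probe sets Inhbb therefore rose more than Inha and more than Inhba. The Inhba signal was close to the filter level, where a change is poorly measured, which limits the comparison with that gene.

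In ablation plus estradiol against sham, Inhbb minus Inha moved by 0.82 (2-sided exact permutation test, p = 0.00031, adjusted p = 0.000697) and Inhba minus Inha by -0.76 (exact permutation test, p = 0.00335, adjusted p = 0.00604). Inhbb minus Inhba moved by 1.57 (exact permutation test, p = 5.16e-05, the smallest possible, adjusted p = 0.000155). Against ablation alone the 3 differences moved by -0.26, -0.47 and 0.21 for Inhbb minus Inha, Inhba minus Inha and Inhbb minus Inhba (exact permutation tests, adjusted p = 0.228, 0.0579 and 0.328). None of these 3 passed the threshold, but Inhba minus Inha passed it in 2 of 17 settings that left out 1 array: it was -0.57 without ablation replicate 2 (adjusted p = 0.00495) and -0.57 without estradiol replicate 3 (adjusted p = 0.0309).

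Within groups, array by array, the 8 genes showed no shared movement that passed correction. Over 28 pairs of genes and 31 arrays, deviations from the group means gave 0 pairs with an adjusted permutation p under 0.05. By r the lowest unadjusted p was that of Inha and Tgfbr3 (r = 0.442, rho = 0.398, permutation p = 0.0237 and 0.0377, adjusted p = 0.476 and 0.352), and r fell to 0.363 without the 2 arrays farthest from the median. By rho it was that of Fst and Tgfbr3 (r = -0.358, rho = -0.428, permutation p = 0.0623 and 0.0224, adjusted p = 0.476 and 0.352), with r = -0.302 without the 2 farthest arrays. Inha and Inhbb, whose products join in inhibin B, gave r = -0.0419 (rho = -0.00242, permutation p = 0.828 and 0.991, adjusted p = 0.892 and 0.991), and r = -0.0331 without the 2 farthest arrays. The genes with deviations most like those of Inha were Gpi (r = 0.788), Cdc42bpb (r = 0.784) and Trim28 (r = 0.755), again chosen as the highest of 11273.

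Follistatin and follistatin-like 3 are the secreted proteins that bind activin. Fstl3 had a signal (log2) from 1.02 to 2.05 in sham with a median of 1.55 (1.54 ± 0.31, SD, n = 14), from 0.40 to 1.55 in ablation with a median of 1.06 (1.01 ± 0.33, n = 11) and from 0.80 to 1.32 in ablation plus estradiol with a median of 0.985 (1.03 ± 0.23, n = 6). The treated arrays overlapped the lower part of the sham range. In ablation 10 of 11 arrays, all but 1, lay below the sham mean, and 4 lay below every sham array.

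Fstl3 fell by 0.53 ± 0.12 (log2, SE) with ablation, or 1.45-fold lower (limma, adjusted p = 0.00114), with a 95% interval from -0.77 to -0.29. Its second probe set, above the filter level on 19 arrays, fell by 0.91 ± 0.26 (limma, adjusted p = 0.00981). In arrays with estradiol against sham the main probe set changed by -0.50 ± 0.14, 1.42-fold lower (limma, adjusted p = 0.0129), and the second one by -0.55 ± 0.31, which missed the threshold (adjusted p = 0.276). With and without estradiol, treated arrays differed by 0.03 ± 0.15 (limma, adjusted p = 0.956), with an interval from -0.28 to 0.33.

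Fst, the gene of follistatin, had a low signal in all groups. It ran from -1.52 to -0.63 in sham (log2, mean -1.11 ± 0.27, SD, n = 14), from -1.58 to -0.79 in ablation (-1.15 ± 0.23, n = 11) and from -1.79 to -1.14 in ablation plus estradiol (-1.50 ± 0.24, n = 6). All 6 arrays with estradiol lay below the sham mean, 3 of them below every sham array, while sham and ablation arrays overlapped throughout. The change was -0.04 ± 0.11 with ablation (limma, adjusted p = 0.853), -0.34 ± 0.14 between the treated groups (p = 0.0175, adjusted p = 0.167) and -0.38 ± 0.13 for ablation plus estradiol against sham, 1.30-fold lower (adjusted p = 0.0468).

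That call for Fst was not firm. It was lost in 7 of 10 alternatives that changed the processing or the sham arrays and in 13 of 20 that left out 1 array (without sham replicates 2, 3, 4, 6, 7, 9, 10, 12 or 14, or estradiol replicates 1, 3, 5 or 6), with limma adjusted p from 0.0253 to 0.454 over all of these and the change always below 0. Against the 4 shams described as irradiated the change was -0.26 (adjusted p = 0.454). A second Fst probe set was above the filter level on 5 arrays and was not tested. The genes with deviations most like those of Fst were Nos1ap (r = 0.647), C10h16orf90 (r = 0.615) and Rasgrf2 (r = 0.587), and of Inhba Prkar1b (r = 0.691), A1cf (r = 0.68) and Kcnj3 (r = 0.656, but 0.323 without the 2 arrays farthest from the median).

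**Figure D3:**
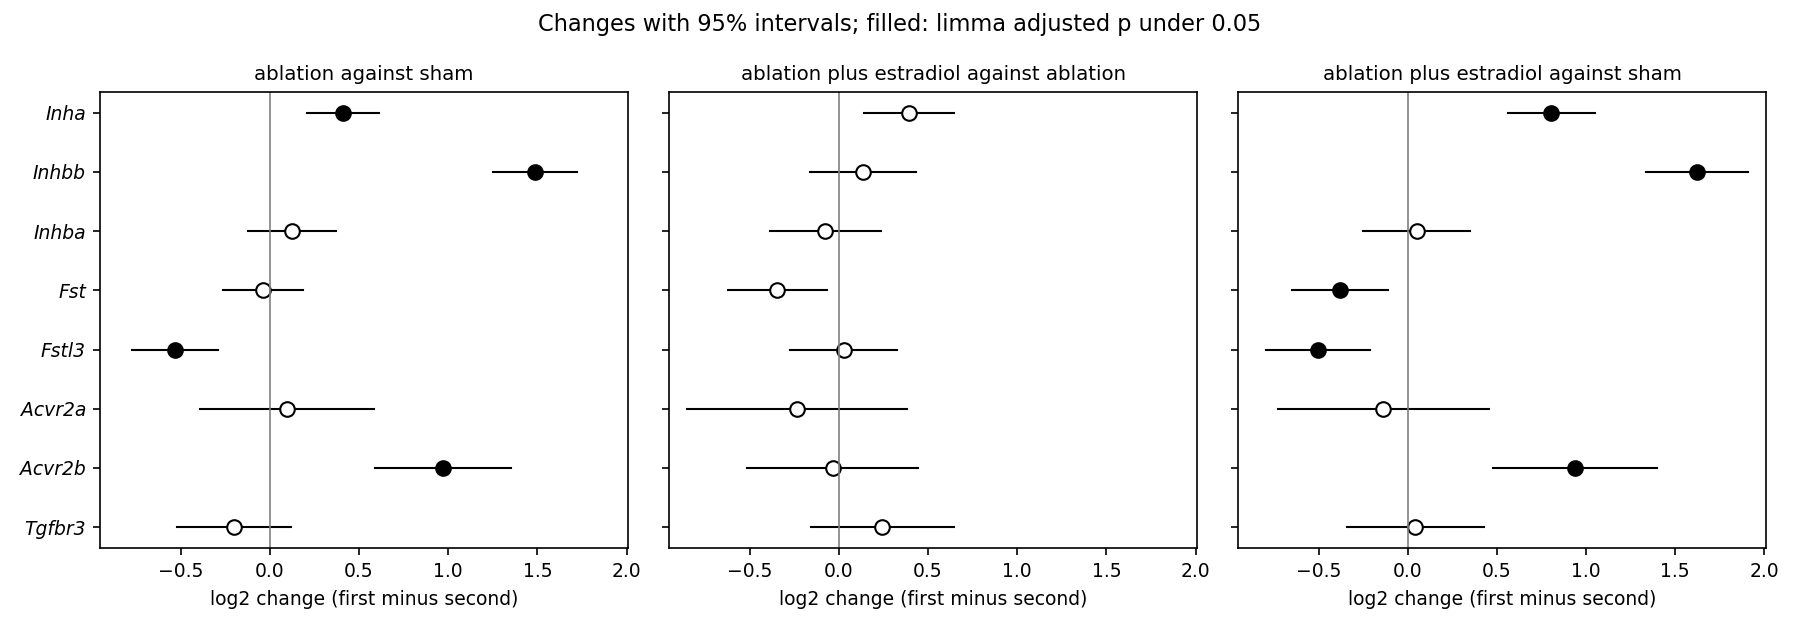
Log2 change (horizontal axis, first group minus second) of the main probe set of 8 genes with its 95% interval, in 3 comparisons; filled points passed limma's adjusted p of 0.05. In the comparison between the treated groups all 8 points are open, and the interval of Inha runs from 0.14 to 0.65.

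Of the type II receptors, which bind activin and, with a coreceptor, inhibin, Acvr2b passed the test against sham and Acvr2a did not. The Acvr2b signal (log2) ran from -3.23 to -1.23 in sham with a median of -2.26 (-2.22 ± 0.57, SD, n = 14), from -2.22 to -0.47 in ablation with a median of -1.15 (-1.25 ± 0.45, n = 11) and from -1.43 to -1.10 in ablation plus estradiol with a median of -1.255 (-1.28 ± 0.12, n = 6). It was above the filter level on 4 of 14 sham arrays, 10 of 11 ablation arrays and 6 of 6 arrays with estradiol. Acvr2b was thus tested only because of treated arrays, its sham level is poorly measured and no fold is given.

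With every value below the filter level raised to that level, the change of Acvr2b was 0.56 ± 0.10 (log2, SE) with ablation against sham (limma, adjusted p = 7.87e-05) and 0.48 ± 0.12 with ablation plus estradiol against sham (adjusted p = 0.0051). On the values as deposited the differences were 0.97 ± 0.19 (limma, adjusted p = 0.000199) and 0.94 ± 0.23 (adjusted p = 0.00328), and 7 of 11 ablation arrays lay above every sham array. A filter at the 60th percentile left Acvr2b untested. Between the treated groups the difference was -0.03 ± 0.24 (limma, adjusted p = 0.965), with an interval from -0.51 to 0.44.

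Acvr2a ran from -3.93 to -0.56 in sham (log2, mean -1.18 ± 0.87, SD, n = 14), from -1.81 to -0.50 in ablation (-1.08 ± 0.40, n = 11) and from -1.71 to -0.81 in ablation plus estradiol (-1.32 ± 0.30, n = 6). The lowest value was that of sham replicate 4, and without it the change with ablation turned from 0.10 ± 0.24 (limma, adjusted p = 0.832) to -0.12 (adjusted p = 0.645). The intervals of its 3 comparisons were wide, from -0.39 to 0.59 with ablation against sham.

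Tgfbr3, the gene of betaglycan, ran from -0.86 to 0.67 in sham (log2, mean 0.03 ± 0.48, SD, n = 14), from -0.69 to 0.25 in ablation (-0.18 ± 0.32, n = 11) and from -0.69 to 0.52 in ablation plus estradiol (0.07 ± 0.41, n = 6). The groups overlapped over nearly all of their range. Its changes of -0.20 ± 0.16 with ablation and 0.24 ± 0.20 between the treated groups did not pass (limma, adjusted p = 0.407 and 0.596), and neither did those of its second probe set, -0.34 ± 0.19 and 0.11 ± 0.23 (adjusted p = 0.214 and 0.865).

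Other genes of the pathway were taken from 5 lists written for this system. Of their 48 tested genes 15 passed limma's test with ablation against sham and 12 with ablation plus estradiol against sham, beside 22.1% and 17.2% of all genes. Against the 4 described as irradiated, 6 of the 14 named calls with ablation were kept (Bmp6, Bmp7, Smad3, Tgif1, Crem and Fkbp1a) and 4 of the 12 in the second comparison (Bmp6, Bmp7, Smad3 and Tgif1). Against the 10 described as control, 10 of 14 and 11 of 12 were kept. Fewer sham arrays measure a change less precisely, so a lost call alone does not show a smaller change.

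Among 11 further receptors, coreceptors and binding proteins, 3 rose with ablation and 0 fell in limma's test, with a median change of 0.13 (log2), where 9.23% of all genes rose and 12.8% fell. Bambi, a decoy receptor that dampens activin and TGF-beta signalling, rose by 0.35 ± 0.08 (adjusted p = 0.00139), Acvr1, a type I receptor, by 0.39 ± 0.11 (adjusted p = 0.0121), and Bmpr2, a type II receptor of bone morphogenetic proteins, by 0.52 ± 0.17 (adjusted p = 0.029). None of the 3 passed against the 4 sham arrays described as irradiated, where limma's adjusted p ran from 0.12 to 0.222. Their changes there were 0.31, 0.28 and 0.48 in the same order. With ablation plus estradiol against sham 2 rose, Acvr1 (0.45) and Bambi (0.31), and Bmpr2 was at 0.0018 (adjusted p = 0.997). Against the irradiated-described shams Acvr1 and Bambi lost these calls too (adjusted p = 0.218 and 0.299). The Bmpr2 call was lost without ablation replicates 3, 9 or 10 (adjusted p from 0.0503 to 0.052), that of Acvr1 in the second comparison without estradiol replicates 1, 2 or 4 (0.0527 to 0.0565) and that of Bambi there without estradiol replicates 1, 3, 4 or 6 (0.055 to 0.0839).

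Among 15 genes of Smad signalling, 2 rose and 1 fell with ablation, near the share of 22.1% of all genes, with a median of 0.09. Smad3, a transducer of activin signals, rose by 0.45 ± 0.08 (limma, adjusted p = 8.98e-05), and Tgif1, a repressor that binds Smad proteins, by 0.60 ± 0.12 (adjusted p = 0.000376). Smad2, the other activin transducer, was at -0.01 and Smad4, the common partner, at 0.24, and neither passed. With ablation plus estradiol against sham Smad3 (0.54, adjusted p = 0.000121), Tgif1 (0.68, adjusted p = 0.000936) and Smad9 (0.52, adjusted p = 0.0419) rose and none of the 15 fell. The calls of Smad3 and Tgif1 were kept under all alternatives run. Smad9, above the filter level on 5 of 14 sham arrays, was tested only because of treated arrays. Its call was lost in 16 of 30 alternatives (limma, adjusted p from 0.00734 to 0.154). Among these were the fits without sham replicates 1, 3, 5, 6, 13 or 14 and without estradiol replicates 1, 2, 3 or 5. Fkbp1a, which holds type I receptors inactive, fell by 0.25 with ablation (adjusted p = 0.023) and lost that call against the 10 sham arrays described as control (adjusted p = 0.11) and with the replicate number as a block (adjusted p = 0.13).

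Among 9 other ligands of the superfamily, Bmp6 fell and Bmp7 rose in both comparisons with sham, where 22.1% and 17.2% of all genes passed. Bmp6 fell by 0.95 ± 0.08 with ablation (1.93-fold lower, limma, adjusted p = 1.08e-11) and by 0.99 ± 0.10 with ablation plus estradiol (adjusted p = 6.57e-10), in each case with no overlap with the sham arrays. Bmp7 rose by 0.53 ± 0.11 (adjusted p = 0.000655) and 0.91 ± 0.14 (adjusted p = 4.81e-06). Tgfb2 fell by 0.65 ± 0.21 with ablation (adjusted p = 0.0261), or by 0.39 without ablation replicate 9 (adjusted p = 0.0111), and missed the threshold against the irradiated-described (adjusted p = 0.236) and the control-described shams (0.0743). Bmp2 (0.67) and Bmp4 (0.48) rose with ablation plus estradiol against sham, the latter call being lost without estradiol replicates 4 or 5 (adjusted p = 0.0799 and 0.0718) and with the replicate block (0.126). Against the irradiated-described shams both calls were lost (adjusted p = 0.189 and 0.225). Inhbe, the gene of the beta E subunit, was tested and passed in none of the 3 comparisons. Of 5 convertases and proteases that process such precursors, Pcsk5 alone passed, with ablation, near the share of 22.1% of all genes there. It fell by 0.29 (limma, adjusted p = 0.0264, and 0.0545 without ablation replicate 11). Against the irradiated-described shams its change was -0.18 (adjusted p = 0.419).

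**Figure D4:**
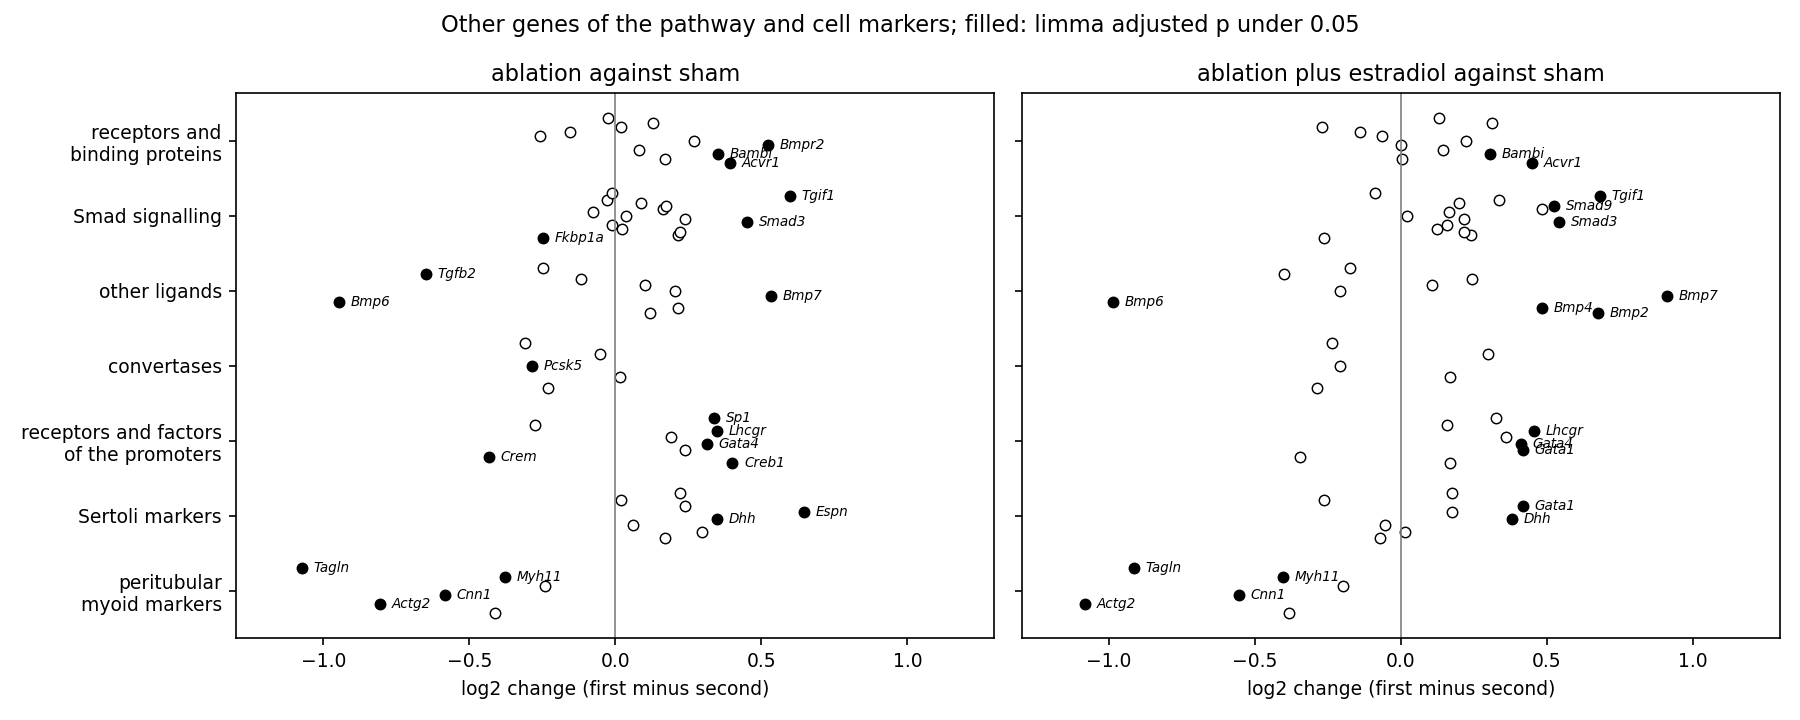
Log2 change (horizontal axis) of genes in 7 lists with ablation (left) and with ablation plus estradiol (right), each against sham; 1 point per gene, filled and named where limma's adjusted p was under 0.05. Among the other ligands Bmp6 lies near -0.95 and -0.99, Smad3 and Tgif1 lie above 0 in both panels, and all 4 named peritubular myoid markers lie below 0.

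Among 8 gonadotropin and steroid receptors and factors known to act on inhibin promoters, 4 rose and 1 fell with ablation, with a median change of 0.28. Of all genes 9.23% rose and 12.8% fell in that comparison. Lhcgr, the receptor of luteinizing hormone, rose by 0.35 ± 0.11 (limma, adjusted p = 0.0183), and Gata4, a factor that activates Inha, by 0.31 ± 0.10 (adjusted p = 0.0279). Sp1 rose by 0.34 ± 0.11 (adjusted p = 0.0319), a call lost in 9 of 36 alternatives (adjusted p from 0.00284 to 0.13), among them without sham replicates 3, 5 or 13 and without ablation replicates 7 or 11. Creb1, named after its values were seen, rose by 0.40, and Crem, a cyclic AMP responsive modulator, fell by 0.43 ± 0.13 (adjusted p = 0.014, but 0.0894 against the control-described shams and 0.0758 with the replicate block). Against the irradiated-described shams Lhcgr was at 0.19 (adjusted p = 0.368) and Gata4 at 0.24 (adjusted p = 0.232), and neither passed. With ablation plus estradiol against sham, where 5.28% of all genes rose, Lhcgr (0.46), Gata4 (0.41) and Gata1 (0.42) rose. Against the irradiated-described shams they were at 0.30, 0.34 and 0.20 and none passed (adjusted p = 0.208, 0.143 and 0.537). Gata4 lost its call with ablation without ablation replicate 11 (adjusted p = 0.0545). In the second comparison it was lost by Gata4 without estradiol replicates 1 or 6 (0.0829 and 0.063) and in a fit of these groups alone (0.0592), by Gata1 without estradiol replicate 6 (0.0952) and by Lhcgr without estradiol replicate 2 (0.0596). In limma's test, 0 of the 48 genes in these 5 lists passed between the treated groups, beside 3.46% of all genes, and 7 had an unadjusted p under 0.05.

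Of 8 Sertoli cell markers, 2 rose with ablation, Espn by 0.65 ± 0.14 (log2, SE; limma, adjusted p = 0.000918) and Dhh by 0.35 ± 0.10 (adjusted p = 0.00789), with a list median of 0.23. The change of Inhbb, 1.49, was larger than that of any of these 8 markers. With ablation plus estradiol against sham Gata1 (0.42) and Dhh (0.38) rose, the latter call being lost without estradiol replicates 2 or 4 (limma, adjusted p = 0.0694 and 0.0695), and the list median was 0.09. Of all genes tested 9.23% rose and 12.8% fell with ablation, and 5.28% rose and 11.9% fell with ablation plus estradiol against sham. Against the irradiated-described shams Dhh did not pass in either comparison (adjusted p = 0.269 and 0.308). Leydig cell markers fell, led by Insl3, a peptide hormone (22.4-fold lower with ablation), and Cyp17a1, an enzyme of androgen synthesis (4.61-fold), while Lhcgr and Hsd3b1, the latter named after its values were seen, rose. Between the treated groups 3 of 7 Leydig markers were lower with estradiol and 0 higher, beside 2.73% of all genes lower. Cyp17a1 changed by -1.85 (limma, adjusted p = 2.89e-11) and Cyp11a1 by -0.56 (limma, adjusted p = 0.00529). The medians of the summed Leydig signal, 51.1 and 57.0, do not show this fall. Of 6 peritubular myoid markers 4 fell with ablation, among them Tagln by 1.07 ± 0.15 and Myh11, whose call was lost against the irradiated-described shams (adjusted p = 0.165). The part of the markers that passed in the changes of Inhbb, Inha, Fstl3 and Acvr2b was not tested.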

How the data were processed

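Total RNA of rat testes was hybridised to 31 Affymetrix arrays (14 sham, 11 ablation, 6 ablation plus estradiol, as the labels give the treatment), from 10 ug of RNA per the labels' protocols. The deposited values are MAS5 signals, per the submitters' processing notes, on a logarithmic scale, read here as log2; the base, the version of MAS5 and its scaling are not given in the sources used here. Of the 25 earlier arrays the values carry more decimals than those of the 6 newer ones. No normalization was added to the deposited values. The number of arrays limits the precision.

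After leaving out 57 control probe sets, 31042 remained, of which 20826 had 1 gene symbol in the platform annotation, 436 several and 9780 none. The filter (above the 40th percentile of the array in at least 6 arrays) kept 21269. Changes were tested with limma 3.58.1 in R 4.3.3, in 1 fit of all 31 arrays with 3 groups and a variance trend, 2-sided, with Benjamini-Hochberg adjustment over all kept probe sets and a call at an adjusted p under 0.05. Medians and shares over all genes used 1 probe set per gene, that of the highest mean. Differences between subunits were tested by permutation of arrays, exact with fewer than 10 arrays in a group and otherwise with 100000 resamples, and correlations by permutation within groups. The code was tested on simulated data.

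The members and the gene lists were chosen with earlier results of these data known. Named genes were all members, up to 4 called genes of the smallest adjusted p per pathway list and per list of Sertoli, Leydig and peritubular markers, and the 3 genes most like each of 4 members. Replicate numbers showed no pairing of ablation with sham arrays or of the treated groups. Correlations of same-numbered arrays' deviations ran from -0.0856 to 0.0467 over 11 pairs of ablation and sham and from -0.182 to 0.0594 over 6 pairs of the treated groups. For estradiol and sham they ran from -0.0107 to 0.376 over 6 pairs, 3 of them over 0.1, so a pairing there is not settled. No arrays were identical (highest correlation 0.9744). A batch term could not be fitted, since the newer deposit holds the estradiol group alone. Alternatives tried were leaving out the filter or raising it to the 60th percentile, normalizing by quantiles, median centring, only the groups compared, sham arrays of either description, the replicate number as a block, no variance trend, low values raised to the filter level, the other probe set of a gene, dropping the 2 arrays with extreme scores on the first principal component (sham replicate 1 and ablation replicate 2) and leaving out each array. Scaling alternatives for the correlations were added after seeing the data.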

Additional observations from a re-analysis of the deposited data

Results flagged for a closer look

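Among the 12 probe sets of these genes, the 6 arrays of ablation plus estradiol were searched for a value far from the others, by the critical gap of Dixon's test relative to the group's range. The second probe set of Fstl3 was at -3.28 (log2) in estradiol replicate 3, with the nearest array at -1.92, a gap of 0.687 of the range. The second probe set of Tgfbr3 was at -2.24 in the same replicate, with the nearest array at -0.95, a gap of 0.672. Both are dimmer probe sets than the main ones of their genes, on which this replicate did not stand apart by that measure. Chance alone gives such a gap in about 1 of 20 groups.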

How the results depend on the processing

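Against 4, 0 and 5 genes called of 8 (ablation against sham, ablation plus estradiol against ablation, ablation plus estradiol against sham), the second count was 1 (Inha) after quantile normalization, after median centring, with the compared groups alone and without sham replicate 1 and ablation replicate 2 together, the arrays with extreme scores on the first principal component. The first was 3 against the shams described as irradiated (without Inha). With the filter at the 60th percentile, where Acvr2b, Fst and Inhba were not tested, the first and the third were 3. The third was also 3 with the replicate number as a block, and 4 (without Fst) with no filter, quantile normalization, median centring, the compared groups alone, the shams described as irradiated or without those 2 arrays. With that block, probe set counts were 3185, 878 and 2349 instead of 4128, 1173 and 3093, and the Fst (adjusted p = 0.057) and Fstl3 (-0.38, adjusted p = 0.155) calls of the third comparison were lost. Correlations of same-numbered arrays did not support a pairing in the first 2 comparisons and left it unsettled in the third. Against the shams described as irradiated alone, 2345 and 1702 probe sets were called. Leaving out 1 array gave 3724 to 4455, 830 to 1205 and 2540 to 3197 probe sets and 4 to 4, 0 to 1 and 4 to 5 of the 8 genes.

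Scaling moved the split of calls. Higher and lower probe sets were 1947 and 2181 with ablation (2652 and 2355 after quantile normalization, 1875 and 2378 after centring), 126 and 1047 between the treated groups (312 and 988, 210 and 835) and 882 and 2211 for the third comparison (1753 and 1963, 1137 and 1947).

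Leaving out 1 array, the subunit differences ran, for ablation against sham, from 1.03 to 1.15 (Inhbb minus Inha), -0.35 to -0.18 (Inhba minus Inha) and 1.29 to 1.42 (Inhbb minus Inhba), for the treated groups from -0.36 to -0.19, -0.57 to -0.39 and 0.13 to 0.31, and for the third comparison from 0.71 to 0.89, -0.85 to -0.68 and 1.49 to 1.68.

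Signs turned only for changes that passed in no setting. With ablation against sham, Inhba was at -0.054 with its other probe set, Fst at 0.085 and Acvr2a at -0.010 against the shams described as irradiated, and Acvr2a at -0.046 with low values raised. Leaving out 1 array gave -0.12 to 0.17 for Acvr2a (below 0 without sham replicate 4) and -0.075 to 0.0038 for Fst (above 0 without ablation replicate 1). Between the treated groups Acvr2b was at 0.018 after quantile normalization and 0.0087 after centring, and leaving out 1 array gave -0.13 to 0.042 for Acvr2b (above 0 without ablation replicate 5) and -0.034 to 0.081 for Fstl3 (below 0 without ablation replicates 4 or 8 or estradiol replicates 3 or 4). In the third comparison Inhba was at -0.43 with its other probe set and -0.012 with the replicate block, Tgfbr3 at -0.23 and -0.061 in the same order, and Acvr2a at 0.085 with the block. Leaving out 1 array gave Tgfbr3 -0.048 to 0.19 there (below 0 without sham replicate 7 or estradiol replicate 1). The cause of these shifts was not tested. Signal near the filter level limits Acvr2b, Acvr2a, Inhba and Fst.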

Other observations

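Markers of other cells moved beside the inhibin genes. Of 6 macrophage markers 5 were lower with ablation against sham in limma's test and none higher, with a median change of -0.58 (log2) against 0.00082 over all genes. With ablation plus estradiol against sham 3 were lower. Among all genes 12.8% and 11.9% were lower in these comparisons. Of 5 endothelial markers 2 were lower with ablation. Of 8 spermatogonial markers listed, 4 could be tested. Of these 4, 3 were higher with ablation and 1, Kit, was lower, and 3 were higher with ablation plus estradiol against sham. Among all genes 9.23% and 5.28% were higher in these comparisons. Ret and Sall4, below the filter level on every sham array, were tested only because of treated arrays. A higher call for them was therefore largely set by the filter.

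In limma's test between the sham arrays described as irradiated (4) and those described as control (10), 0 kept probe sets passed after adjustment. None of the 8 inhibin and activin genes had an unadjusted p under 0.05. The lowest was that of Inhbb, higher by 0.30 ± 0.16 (log2, SE) in those described as irradiated (p = 0.0724, adjusted p = 1), a difference well below its change of 1.49 with ablation.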
